A study of Mus musculus with 77 samples.

Results

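The p53 peaks of Trem2 knockout bone-marrow-derived macrophages (BMDM) kept in room air are 1263 genomic intervals, taken as the complete peak list that the authors called for this group. They are 1263 of the 11305 intervals in the 10 p53 peak lists of the series. An interval was marked when it shared at least 1 bp with a peak of C57BL/6J (B6) BMDM in room air (4107 peaks) or of Trem2 knockout (KO) BMDM in hyperoxia (1320 peaks). Peaks of B6 BMDM in hyperoxia (3500 peaks) and 6 lung lists served as further references. No score entered the choice. Of the 1263 intervals, 1262 were 201 bp wide.

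The study examined lungs of newborn mice and cultured BMDM for the link between Trem2, p53 and oxygen injury. The groups used here were B6 and KO BMDM held for 24 h in room air or hyperoxia, with 2 p53 immunoprecipitations pooled into 1 list per group and 2 RNA libraries per group. The RNA table also held 2 libraries each of DBA/2J BMDM in room air and hyperoxia. They entered the estimate of spread but no comparison, and their room-air TPM are given beside some named genes. The KO mice were a whole-animal Trem2 knockout strain from Jackson Laboratory, and the column names of the RNA table carry the mark invitro95. Several labels limit these groups. Titles of both KO room-air p53 libraries give the knockout, whereas their genotype field gives C57BL/6J, and the grouping here follows the titles and the headers. The KO peaks were called against the input of B6 BMDM from the same exposure. The labels do not say whether replicates were separate cultures, and the pooled lists give no spread between replicates, so peak counts below are described without a test.

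The protein p53 is a transcription factor that binds DNA as a tetramer at pairs of a short palindromic element (the p53 decamer) and switches on genes for cell-cycle arrest, apoptosis, DNA repair and its own inhibitor Mdm2. High oxygen damages DNA and stabilises p53. TREM2 is a lipid-sensing receptor of macrophages that signals through the adaptor TYROBP. Chromatin immunoprecipitation recovers DNA bound by p53, and a peak is an interval where sequenced fragment ends (tags) pile up over the input control and the surroundings.

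Sequence for a peak could be read only where it met a promoter window, which runs from 250 bases before to 50 after a RefSeq start in GRCm38.p6, the same assembly as the mm10 coordinates of the lists. Of the 1263 peaks, 9 (0.713%) met such a window and 6 had at least 100 bases in it. The first sequence below is the 1 interval among those 6 with an exact pair of p53 decamers (capitals), at chr1:155056274-155056441 on the + strand, in the window of the predicted gene Gm51651. The second is the interval at the shared start region of Dpcd and Poll (chr19:45560441-45560634, + strand), with the ETS-type motif CCGGAAGT in capitals. The third stands for the many weak peaks found in no other list, at the vomeronasal receptor gene Vmn1r5 (chr6:56970102-56970302, + strand), with CATG, the core of most p53 decamers, in capitals. The fourth was not a peak of the KO room-air list: it is the KO hyperoxia peak upstream of Cdkn1a (chr17:29090820-29091020, + strand), with 2 adjoining decamers in capitals that differ from the consensus at 1 base.
Gm51651: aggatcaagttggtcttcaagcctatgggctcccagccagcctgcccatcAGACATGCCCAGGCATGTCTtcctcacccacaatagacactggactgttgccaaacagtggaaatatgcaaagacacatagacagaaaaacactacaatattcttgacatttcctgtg
Dpcd: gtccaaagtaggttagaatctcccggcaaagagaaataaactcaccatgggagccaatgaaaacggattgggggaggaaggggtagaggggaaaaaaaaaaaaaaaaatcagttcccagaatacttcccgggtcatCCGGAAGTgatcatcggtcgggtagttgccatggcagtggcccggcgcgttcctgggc
Vmn1r5: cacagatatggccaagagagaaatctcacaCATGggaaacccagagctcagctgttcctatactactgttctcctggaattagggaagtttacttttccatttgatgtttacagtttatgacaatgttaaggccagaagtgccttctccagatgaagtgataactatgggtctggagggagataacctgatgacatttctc
Cdkn1a: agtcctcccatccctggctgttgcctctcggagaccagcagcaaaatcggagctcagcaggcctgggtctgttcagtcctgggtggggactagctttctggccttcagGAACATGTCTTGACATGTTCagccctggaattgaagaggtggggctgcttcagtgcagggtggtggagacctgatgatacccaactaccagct

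An exact pair of p53 decamers with a spacer of up to 13 bases was present in 24 of 32851 RefSeq promoter windows (0.0731%). Allowing 1 mismatch, it was present in 359 windows (1.09%). A single p53 decamer was present in 1 of the 6 readable KO room-air intervals (16.7%) and in 6 of 8 readable KO hyperoxia intervals. It was present in 17 of 164 readable B6 room-air intervals (10.4%) and in 20 of 108 of B6 hyperoxia (18.5%). Of all promoter windows 8.36% had it. The letters CATG were in 5 of the 6 intervals and in 61.1% of windows, and CCGGAAGT was in 1 of the 6 and in 3.89% of windows. GGGCGG (35.7% of windows), TGANTCA (7.81%) and CACGTG (7.15%) were in none of the 6, and ATTGG (37.4%) was in 2. All motifs were searched on both strands, and intervals cover less sequence than whole windows. With 6 readable intervals these counts describe those intervals alone.

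The list consisted mainly of weak peaks. Its scores are the authors' and give tags per 10 M tags of the pooled library. They ran from 11 to 445 with a median of 14, and the middle 50% of peaks lay between 14 and 16. With 5.57 M tags (M, mega) in the pooled library, 1 tag corresponds to a score of 1.8, so scores could be turned back into tags. The tags so estimated summed to 12749, the number of tags in peaks that the header states. The median peak held 8 tags, which is also the tag threshold that the header gives for a false discovery rate of 0.001. By this estimate 545 peaks held 8 tags, 255 held 9, 235 held 7 and 17 held 6. Peaks of 7 and 6 tags thus lie under that threshold, so the estimate differs from the count the threshold was applied to. The reason was not examined. Peaks of 9 tags or fewer numbered 1052, or 83.3% of the list. The corresponding shares were 74.2% of the KO hyperoxia list, 44.0% of the B6 room-air list and 43.1% of the B6 hyperoxia list. At least 20 tags were reached by 32 peaks (2.53%), against 4.17%, 5.48% and 15.5% in the same order.

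**Figure D1:**
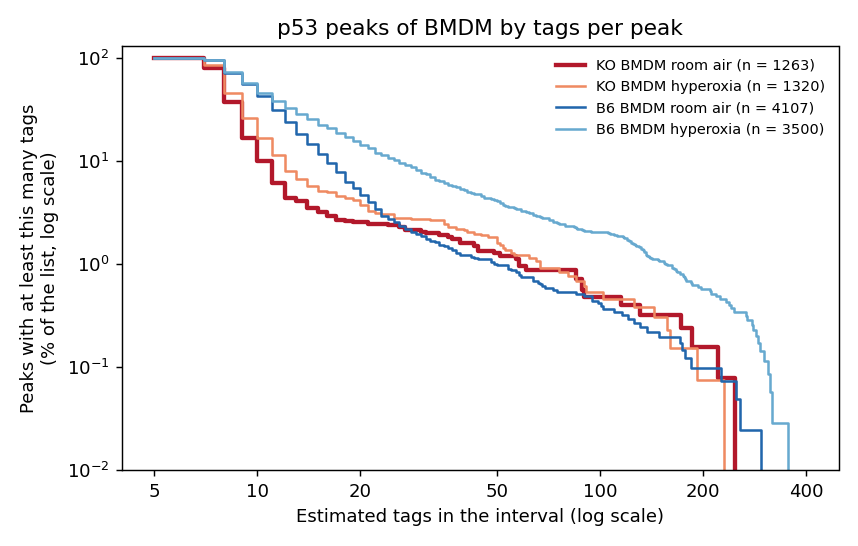
Share of the peaks of each BMDM list (y axis, percent, log scale) that hold at least the number of tags on the x axis (log scale), with 1 line per pooled list. The KO room-air line is lowest between about 9 and 20 tags, where 83.3% of its peaks hold 9 tags or fewer.

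Peaks took up a small part of the library. Tags in peaks made up 0.23% of all tags in KO room air, 0.25% in KO hyperoxia, 0.64% in B6 room air and 0.76% in B6 hyperoxia. The headers count 4276 candidate peaks in KO room air, of which 2896 (67.7%) were removed against the input and 117 against the local background. In B6 room air 48793 candidates were counted and 43043 removed against input. KO and B6 lists therefore differed in the number of candidates before any filter. Depth moved with genotype, since the pooled libraries held 5.57 and 5.78 M tags in KO and 7.76 and 7.85 M in B6. The part of depth, antibody recovery and genotype in the difference between KO and B6 lists was not tested. KO room air and KO hyperoxia had similar depth.

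Few of the 1263 peaks were found in another list. With B6 room air 56 peaks overlapped, which is 4.43% of the KO room-air list (95% Wilson interval 3.43% to 5.71%, covering counting error only) and 1.36% of the B6 list. With KO hyperoxia 49 overlapped, or 3.88% (2.95% to 5.09%) and 3.71% of that list. With B6 hyperoxia 43 overlapped (3.40%). The 6 lung lists held between 1 and 7 of the peaks each. By the marks, 41 peaks lay in both B6 room air and KO hyperoxia, 15 in B6 room air only, 8 in KO hyperoxia only and 1199 (94.9%) in neither. In none of the other 9 lists were 1196 peaks found. A low overlap was not limited to this list: the 2 B6 BMDM lists shared 298 peaks, 7.26% of the room-air and 8.51% of the hyperoxia list.

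Higher peaks overlapped other lists more often. Of the 1052 peaks with 9 tags or fewer, 11 (1.05%) lay in another BMDM list. Of 179 peaks with 10 to 19 tags, 28 (15.6%) did, and of 32 peaks with at least 20 tags, 28 (87.5%) did. Of those 32 peaks, however, 23 lay in the crowded regions or on the unplaced contigs described below, beside 5 of the 179. The median score was 47 in the class shared with both marked lists and 14 in the class shared with neither. Of the 41 peaks shared with both, 17 lay in those regions or contigs. Outside them, peaks shared with either marked list had a median of 22. Scores of 20 were the median both of peaks shared with B6 room air only and of those shared with KO hyperoxia only.

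Several of the highest peaks lay in 2 crowded regions and on unplaced contigs. At chr2:98662690-98667170, 3 peaks had scores of 235 to 445, among them the highest of the list. At chr9:3000046-3036656, 13 peaks had scores of 34 to 207. These regions of the mm10 assembly are known to hold satellite repeats. A further 12 peaks lay on contigs without a chromosome position. Together these 28 peaks were 2.22% of the list and held 1765 tags, 13.8% of all tags in peaks. Of the 12 highest peaks of the list 9 were among these 28, and the other 3 lay near 4933422A05Rik on chromosome 9 (score 397), near Gm5458 on chromosome 14 (311) and near Dpy19l1 on chromosome 9 (110). Without the 28, 35 of 1235 peaks (2.83%) overlapped B6 room air, 30 (2.43%) overlapped KO hyperoxia and 30 overlapped B6 hyperoxia, a selection made after the values were seen. Not all tall peaks of the crowded regions were shared: the peak at chr2:98666970-98667170 (score 334) met no peak of another list. Outside these regions the tallest peak found in no other list was at chr6:103649065-103649265 (score 61), 138 kb downstream of the start of Chl1, a neural cell adhesion gene.

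In all 4 BMDM lists 36 peaks were found, 24 of them outside the crowded regions and contigs. Among these 24, scores fell into unlike patterns. For 14 the score in the KO room-air list was higher than in each of the other 3 lists. Near 4933422A05Rik, for example, the scores were 397 in KO room air, 332 in KO hyperoxia, 322 in B6 room air and 214 in B6 hyperoxia. The chr2:98662690-98662890 peak of the crowded regions fell in the same order, with 445, 400, 331 and 297. Relative to it, the 4933422A05Rik peak stood at 89.2%, 83.0%, 97.3% and 72.1%, and that near Pak3 at 20.7%, 22.0%, 21.1% and 21.9%. The peak near Lrriq1 stayed highest in KO room air, with 8.54%, 7.75%, 5.14% and 6.4%. A higher score in KO room air therefore does not by itself show stronger binding there. For 5 the B6 hyperoxia score was over 3 times the KO room-air score, and the remaining 5 lay between. The peak with the p53 decamer pair at Gm51651 was 1 of those 5, and it was found in 8 of the other 9 lists. It scored 47 in KO room air, 277 in KO hyperoxia, 380 in B6 room air and 451 in B6 hyperoxia. Set against the chr2:98662690-98662890 peak of the same list, its score was 10.6% in KO room air, 69.2% in KO hyperoxia, 115% in B6 room air and 152% in B6 hyperoxia.

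The other 4 of those 5 peaks were lower. The peak 3.14 kb upstream of Klhdc4 (chr8:121832606-121832806) scored 27 in KO room air, 158 in KO hyperoxia, 291 in B6 room air and 373 in B6 hyperoxia. The peak 1.12 kb upstream of Dyrk3, a protein kinase gene (chr1:131139250-131139450), scored 20, 113, 162 and 358 in the same order. The peak 53.2 kb downstream of the start of Sash1 (chr10:8832769-8832969), a signalling scaffold gene, scored 16, 29, 32 and 197. That 22.4 kb upstream of Map3k7, which encodes the kinase TAK1 (chr4:31941580-31941780), scored 13, 36, 36 and 210. All 4 had the lowest score in KO room air and the highest in B6 hyperoxia, in lists that were pooled and called separately. They and the Gm51651 peak were chosen for a B6 hyperoxia score over 3 times the KO room-air score. That choice favours this order. Neither the order nor the percentages given for Gm51651 are therefore a separate result.

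**Figure D2:**
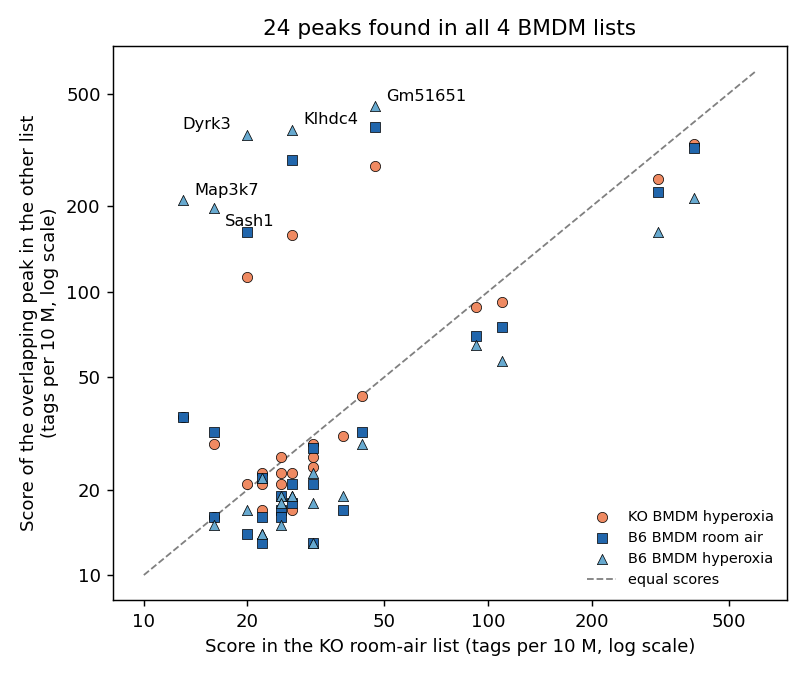
Score of each of the 24 peaks found in all 4 BMDM lists and outside the crowded regions (x axis: KO room-air list; y axis: overlapping peak in each of the other 3 lists; tags per 10 M, log scales; 1 symbol per list). Most symbols lie near or below the line of equal scores. The 5 labelled peaks, such as Gm51651 with 47 against 277, 380 and 451, lie above it. They were chosen by their B6 hyperoxia score relative to KO room air.

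The next comparison was of peaks near known p53 targets. Within 10 kb of the start site none of 50 listed p53 target genes had a KO room-air peak, which for a count of 0 allows a share of up to 6%. The list of 50 includes Trp53 itself. Among all 24940 listed genes 363 (1.46%) had one, a share that lies within this limit, so the 0 alone does not set the targets apart from other genes. The KO hyperoxia list, at similar depth, placed a peak near 9 of the 50 (18%), where 1.84% of all genes had one. The shares were 21 of 50 (42%, against 6.34% of all genes) for B6 room air and 25 of 50 (50%, against 4.77%) for B6 hyperoxia. Within 50 kb the KO room-air list reached 3 of the 50 (6%), beside 6.59% of all genes. A peak missing from the list does not show that no p53 was bound there, since tags outside called peaks were not analysed here.

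The 9 targets with a KO hyperoxia peak span arrest, apoptosis and feedback. Bbc3 (the BH3 protein PUMA) had the highest score there, 140, followed by Cdkn1a (the cell-cycle inhibitor p21) with 87 and Mdm2 (the ubiquitin ligase of p53) with 69. Trp53cor1 (lincRNA-p21) had 62, Zmat3 (an RNA-binding protein) 43, Ccng1 (cyclin G1) 38, Psrc1 (a microtubule regulator) 35, Bax (the pore former of mitochondria) 23 and Abhd4 (a lipid hydrolase) 16. The KO room-air peak nearest to Cdkn1a was 967 kb away with a score of 16, and that nearest to Mdm2 was 1810 kb away with a score of 14. In B6 room air, Cdkn1a had a peak of 149 at 2.83 kb upstream, beside the KO hyperoxia peak at 2.85 kb. At Trem2 the nearest KO room-air peak lay 1750 kb away (score 18), and at Trp53 it lay 320 kb away (score 14).

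**Figure D3:**
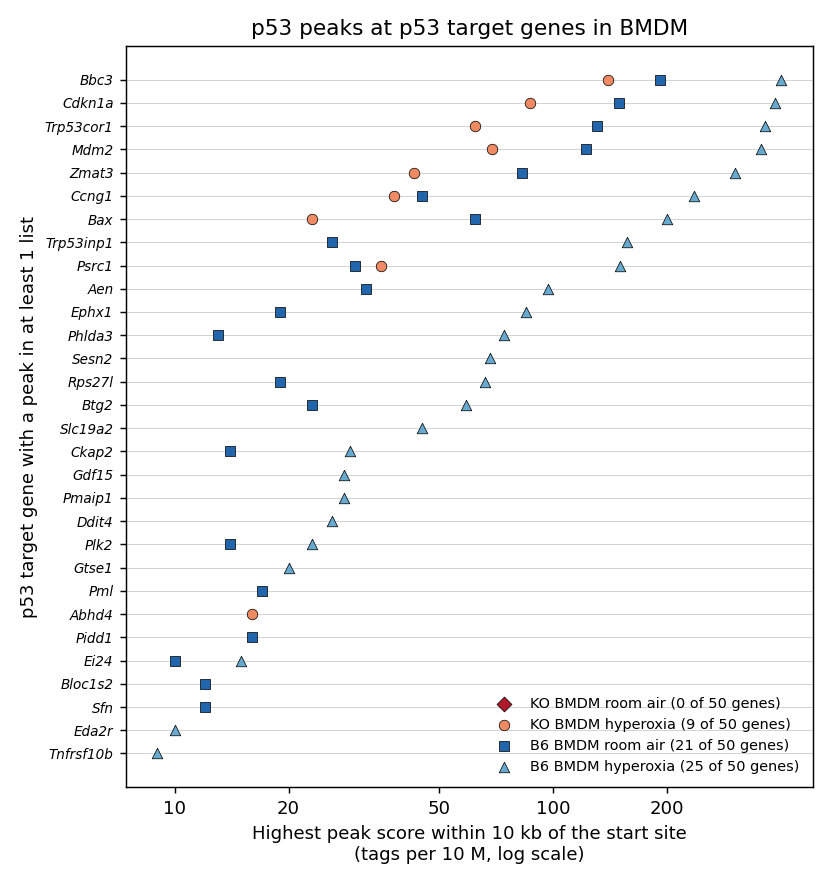
Highest peak score within 10 kb of the start site (x axis, tags per 10 M, log scale) for each p53 target gene with a peak in at least 1 BMDM list (y axis), with 1 symbol per list. No symbol stands for KO room air, where 0 of 50 genes had a peak, against 9, 21 and 25 in the other lists.

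Other gene groups important to macrophages were nearly as empty. Of 34 macrophage transcription factors, 21 NRF2 antioxidant genes, 20 interferon response genes and 19 inflammatory genes, none had a KO room-air peak within 10 kb. Of 24 lipid and lysosome genes 1 had one, Lipa (lysosomal acid lipase), with a score of 18 at 3.95 kb upstream. The KO hyperoxia list was about as empty, with 0, 1, 1, 0 and 0 genes in that order, where 1.84% of all genes had a peak. In B6 room air the same lists had 5, 5, 6, 1 and 5 genes with a peak, beside 6.34% of all genes. In B6 hyperoxia they had 3, 3, 4, 2 and 5, beside 4.77%. At a background of 1.46%, lists of this size would hold few genes in any case.

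Few peaks lay close to a start site. Within 1 kb of a start site lay 19 of the 1263 peaks (1.5%, Wilson interval 0.965% to 2.34%), beside 1.73% of all positions between the first and last listed transcript of each chromosome. In B6 room air 8.11% and in B6 hyperoxia 6.71% of peaks lay that close, and in KO hyperoxia 1.97%. Within 10 kb lay 283 peaks (22.4%, 20.2% to 24.8%), beside 15.0% of positions. Of these, 127 were upstream and 156 downstream of the start. Within 50 kb lay 740 peaks (58.6%), beside 44.2% of positions, and 608 peaks (48.1%) fell inside a listed transcript, beside 36.3% of positions. The median distance was 32.2 kb, against 24.6 kb in KO hyperoxia, 21.8 kb in B6 room air and 23.9 kb in B6 hyperoxia. Beyond 1 kb the peaks were thus nearer to genes than positions at large, and less near than the peaks of the other 3 lists.

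**Figure D4:**
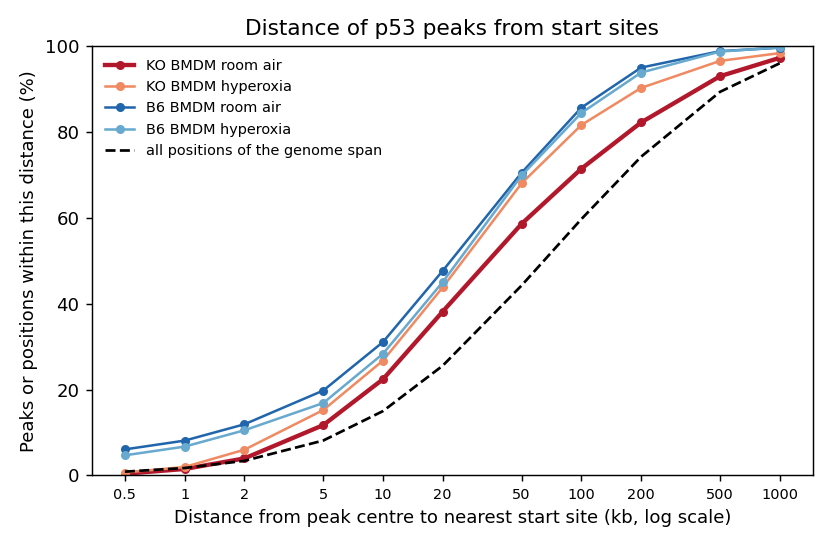
Share of peaks (y axis, percent) within the distance on the x axis (kb, log scale) of the nearest start site for the 4 BMDM lists, with all positions of the genome span as a dashed line. The KO room-air line runs between the dashed line and the other lists from 5 kb onward, with 22.4% against 15.0% at 10 kb.

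Over the 19 autosomes the number of KO room-air peaks ranged from 32 to 124. It followed the length of the chromosome (Pearson r = 0.86, Spearman rho = 0.85) more closely than the number of start sites (0.62 and 0.65). In B6 room air the values were 0.71 and 0.66 for length and 0.72 and 0.80 for start sites. These correlations describe 19 chromosomes of 1 pooled library each, and length and start sites go together. Peaks per 100 Mb were 51.3 on autosomes and 11.3 on the X chromosome in KO room air, and 168 and 38.2 in B6 room air.

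The 19 peaks within 1 kb of a start were weak, with scores of 13 to 25, and only that near Crebzf lay in another BMDM list. Crebzf, a bZIP transcription factor gene, had its peak (score 25) 0.781 kb upstream, with scores of 26, 19 and 19 in KO hyperoxia, B6 room air and B6 hyperoxia. The other highest ones were near Poll (DNA polymerase lambda, score 25), Adar (the RNA-editing enzyme, 22) and Nars (asparaginyl-tRNA synthetase, 22). Chrm5 (a muscarinic receptor) scored 20. Casp4 (the inflammatory caspase that senses lipopolysaccharide) and Oxt (oxytocin) were among those that scored 16. Oxt was listed at 0 TPM in all KO room-air libraries. TPM are transcript levels scaled for length and to a common total. Casp4 had 17.6 and 17.6 TPM in them, and Adar had 43.3 and 41.2.

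Transcript levels of the genes with a peak were then compared, first as levels. Of 363 genes with a KO room-air peak within 10 kb, 234 (64.5%) had a mean of at least 1 TPM in the 2 KO room-air libraries, beside 46.9% of all listed genes. Listed at 0 TPM in both libraries were 54 (14.9%), beside 32.3% of all genes. Among genes with at least 1 TPM the median was 16.9 TPM near a peak and 13.9 TPM over all genes. Of 20 genes with a peak within 1 kb, 11 (55%) reached 1 TPM. As a check of the label, the 8 macrophage markers summed to 19900 and 21300 TPM in KO room air, and none of them was at 0. Other marker sums there were at most 94.3 TPM for fibroblasts, 79.5 for neutrophils, 59.3 for T cells (mostly Cd4, with Cd3g at 0), 6.42 for endothelium, 5.71 for B cells, 0.58 for dendritic cells and 0.03 for epithelium.

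The targeted gene was checked next. Trem2 stood at 236 and 239 TPM in KO room air and at 948 and 962 TPM in B6 room air. KO was lower by a log2 fold change of -2.0 ± 0.05 (SE, limma adjusted p = 2.35e-08), so transcript from the locus was reduced and still listed. Trp53 stood at 43.6 and 45.8 TPM in KO and 52.9 and 45.0 TPM in B6 room air, and these ranges overlapped (limma adjusted p = 0.409). KO and B6 RNA columns carry different date codes, so genotype and date cannot be told apart. DBA columns carry the KO date code, and DBA room air had Trem2 at 1100 and 1030 TPM. In each B6 exposure group 1 of the 2 columns carries the mark F, where the other B6, KO and DBA columns carry MF. Fibroblast markers also moved with this contrast: all 3 were present in KO room air, summing to 75.6 and 94.3 TPM, against 0.133 and 0.151 TPM in B6. The 3 T cell markers summed to 58.3 and 59.3 TPM in KO and 17.6 and 24.9 in B6, and the 6 neutrophil markers to 41.9 and 79.5 in KO and 22.7 and 39.1 in B6, with Ly6g at 0 in both. Macrophage markers were lower in KO than in B6, where they summed to 24300 and 24500 TPM. The part of these differences in the results was not tested.

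Between KO and B6 in room air, genes with a KO room-air peak changed about as often as other genes. Of 12320 genes tested, 6052 (49.1%) passed an adjusted p of 0.05 in limma on log2(TPM + 1), 33.9% higher and 15.3% lower in KO. Of the 363 peak genes 252 passed the filter on low values, and 112 of these (44.4%) were called, 82 higher (32.5%) and 30 lower (11.9%). The median log2 fold change was 0.08 near peaks and 0.14 over all genes. The balance of directions rested on scaling: after quantile normalization, which moved the median of all genes from 0.14 to -0.01, 55 peak genes were called higher and 62 lower, beside 2872 and 2715 of all genes. With a fold change of at least 2 required, 11 were higher and 6 lower. Leaving out KO replicate 2 lowered the number called higher from 82 to 52. For this fold change and this left-out library, counts over all genes are not given here. The drops therefore do not set peak genes apart.

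In both RNA comparisons the genes named were taken from called peak genes with at least 5 TPM in the higher group and with groups that did not overlap. The 6 largest rises in KO were those of A930037H05Rik, Mir8098, Wdfy2, Cd163, Fyco1 and Sulf2, and each had a peak found in none of the other BMDM lists. Wdfy2, an endosomal adaptor, had 50.0 and 55.2 TPM in KO and 22.7 and 19.1 in B6. It was higher by 1.29 ± 0.09 on the log2 scale (limma adjusted p = 4.98e-06), and its peak (score 14) lay 9.08 kb upstream. Mir8098 lies within the Wdfy2 transcript, at chr14:62837721-62837857, and shares that peak. It rose by 1.30, and its rise may not be separate from that of Wdfy2. Sulf2, a heparan sulfatase, had 57.3 and 58.0 TPM in KO and 26.6 and 25.2 in B6, with a rise of 1.13 ± 0.06 (limma adjusted p = 7.89e-07) and a peak of score 14. Fyco1, an adaptor of autophagosome transport, rose by 1.14, Cd163, the haemoglobin scavenger receptor, by 1.16, and the noncoding A930037H05Rik by 1.34. DBA room air, of the KO date code, was nearer to KO for Wdfy2 (47.1 and 44.7 TPM) and Fyco1 (10.4 and 11.2). The same held for A930037H05Rik (22.0 and 21.2) and Mir8098 (40.9 and 28.3). It was nearer to B6 for Sulf2 (30.7 and 31.3) and Cd163 (5.93 and 5.82). The part of date and strain was not tested.

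The 6 largest falls among peak genes were those of Tpx2, Gmnn, S100a10, Cdkn2d, Arsb and Eef1g. Tpx2, a spindle assembly factor, had 2.64 and 1.61 TPM in KO and 11.2 and 8.94 in B6, a change of -1.84 ± 0.17 (limma adjusted p = 2.11e-05). Its peak (score 20) lay 3.55 kb downstream of the start. Gmnn (geminin, the inhibitor of DNA replication licensing) changed by -1.0, and Cdkn2d (the CDK inhibitor p19) by -0.86. S100a10, the annexin A2 partner, had 141 and 135 TPM in KO and 300 and 246 in B6, a change of -0.97 ± 0.09 (limma adjusted p = 2.16e-05). Arsb, a lysosomal sulfatase, changed by -0.64 and Eef1g, a translation elongation factor subunit, by -0.58. DBA room air was near KO for Tpx2 (2.66 and 3.09 TPM), Gmnn (15.3 and 15.2), S100a10 (143 and 145) and Cdkn2d (8.49 and 9.77). For Eef1g it lay between KO and B6 (65.2 and 59.6), and for Arsb it lay above both (35.6 and 35.5). The part of date and strain was not tested. The peaks of these 6 genes scored 14 to 22 and were found in no other BMDM list.

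Of 50 p53 targets, 48 were tested in this comparison and 23 were higher (47.9%, beside 33.9% of all genes) and 6 lower (12.5%, beside 15.3%) in KO, with a median of 0.27. After quantile normalization 19 were higher (39.6%, beside 23.3% of all genes) and 8 lower (16.7%, beside 22%), with a median of 0.13. Cdkn1a had 103 and 101 TPM in KO and 125 and 101 TPM in B6 room air (log2 fold change -0.14 ± 0.13, limma adjusted p = 0.400). Mdm2 had 58.5 and 54.7 TPM in KO and 52.8 and 50.2 in B6 (0.13 ± 0.08, limma adjusted p = 0.190). Neither passed the test, although B6 had peaks of 149 and 122 at these genes and KO room air had none. Ccng1 was higher in KO, with 82.4 and 82.8 against 53.4 and 52.7 TPM (0.63 ± 0.09, limma adjusted p = 0.000311). Zmat3 also rose, with 17.2 and 18.3 against 10.6 and 9.34 TPM (0.77 ± 0.10, limma adjusted p = 0.000148). DBA room air had 64.1 and 76.4 TPM of Ccng1 and 16.8 and 17.0 of Zmat3. Among the 6 lower, Plk2 fell most, from a mean of 125 TPM in B6 to 37.4 in KO (-1.71, limma adjusted p = 5.1e-07). Steap3 followed, from 60.8 to 24.2 TPM (-1.29, limma adjusted p = 1.06e-06).

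Within KO, hyperoxia was compared with room air in libraries of 1 date code. Of all genes tested 2868 (23.3%) were called, 6.88% higher and 16.4% lower in hyperoxia. Of the 252 peak genes tested 56 (22.2%) were called, 14 higher (5.56%) and 42 lower (16.7%), and the median log2 fold change was -0.08 both near peaks and over all genes. Quantile normalization gave 24 higher and 31 lower, beside 1411 and 1471 of all genes. Leaving out 1 library left 5 to 8 higher and 14 to 23 lower, for each of the 4 libraries. Requiring a fold change of at least 2 left 0 higher and 2 lower. For left-out libraries and this fold change, counts over all genes are not given here, so the drops do not set peak genes apart. Both KO room-air libraries enter both RNA comparisons, so the comparisons are not independent. Fibroblast markers summed to 21.1 and 27.6 TPM in KO hyperoxia, below KO room air, and neutrophil markers to 7.79 and 9.63 against 41.9 and 79.5 TPM, with Ly6g at 0 in both groups. Their part in the results was not tested.

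The 6 largest rises of peak genes in hyperoxia were those of Cd5l, Lipa, Tbc1d23, Cbr3, Kcnk13 and 4930402H24Rik. Lipa had 970 and 867 TPM in KO room air and 1390 and 1430 in KO hyperoxia, a rise of 0.62 ± 0.08 (limma adjusted p = 0.000690). Cd5l, a secreted macrophage protein that binds lipids, had 393 and 338 TPM in room air and 619 and 594 in hyperoxia, a rise of 0.73 ± 0.13 (limma adjusted p = 0.00347). Cbr3, a carbonyl reductase, had 12.1 and 13.3 TPM in room air and 21.3 and 18.3 in hyperoxia. Its rise was 0.60 ± 0.12 (limma adjusted p = 0.00748), and 0.0687 and 0.0611 were the adjusted p without KO hyperoxia replicate 1 and without KO room-air replicate 1. Its peak, 3.52 kb downstream of the start, is in all 4 BMDM lists, with scores of 31 and 29 in KO room air and hyperoxia. Tbc1d23, a Golgi trafficking gene, rose by 0.60, Kcnk13, a potassium channel, by 0.43 and 4930402H24Rik by 0.33. Kcnk13 lost its call without KO room-air replicate 2 (adjusted p = 0.0521) and without KO hyperoxia replicate 1 (0.0650). The peaks of Lipa, Cd5l, Tbc1d23, Kcnk13 and 4930402H24Rik overlapped no peak of another BMDM list. Lipa nevertheless had a separate B6 hyperoxia peak within 10 kb, at chr19:34521544-34521744 (score 41, 5830 bp downstream of the start).

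The 6 largest falls in hyperoxia were those of Cd163, A930037H05Rik, Il6ra, Nfkbie, Gpr176 and Abhd15. Cd163 had 12.2 and 14.0 TPM in KO room air and 4.72 and 5.00 in hyperoxia, a change of -1.26 ± 0.24 (limma adjusted p = 0.00544). Il6ra, the interleukin 6 receptor, had 79.6 and 81.5 TPM in room air and 48.5 and 52.3 in hyperoxia, a change of -0.67 ± 0.10 (limma adjusted p = 0.00124). A930037H05Rik changed by -0.74, Gpr176, an orphan receptor, by -0.64 and Abhd15 by -0.64. Nfkbie, which encodes the inhibitor I kappa B epsilon, changed by -0.65, with a limma adjusted p of 0.0153 that rose to between 0.0595 and 0.0942 when any 1 of the 4 libraries was left out. Abhd15 lost its call without KO room-air replicate 2 (adjusted p = 0.0583). The peaks of these 6 genes scored 14 to 16.

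Of 48 p53 targets tested in this comparison, 18 were higher (37.5%, beside 6.88% of all genes) and 6 lower (12.5%, beside 16.4%) in KO hyperoxia. Quantile normalization gave 20 higher (41.7%, beside 11.5%) and 6 lower (12.5%, beside 11.9%). The median log2 fold change of the 48 was 0.08, and 0.21 after quantile normalization. Of the 9 targets with a KO hyperoxia peak within 10 kb, 8 were higher and none lower, with a median of 0.81. Those 9 were picked by their peak in hyperoxia, and their count is given as a description. Cdkn1a rose from 103 and 101 to 257 and 252 TPM (1.31 ± 0.13, limma adjusted p = 0.000178). Mdm2 rose from 58.5 and 54.7 to 129 and 124 TPM (1.15 ± 0.08, limma adjusted p = 2.88e-05). Bax rose from 120 and 130 to 199 and 199 TPM (0.67 ± 0.11, limma adjusted p = 0.00218). Abhd4, the target with the weakest peak of the 9, had 73.8 and 79.7 TPM in room air and 80.2 and 83.6 in hyperoxia (limma adjusted p = 0.333). Bbc3 rose by 0.44 (limma adjusted p = 0.0173), and its adjusted p was 0.0738 to 0.100 when any 1 of the 4 libraries was left out. Psrc1 rose by 0.81 (limma adjusted p = 0.0161), with 0.0824, 0.0772 and 0.126 without KO hyperoxia replicate 1, KO hyperoxia replicate 2 and KO room-air replicate 2. Trp53cor1 rose by 0.94 (limma adjusted p = 0.00832), with 0.0765 without KO hyperoxia replicate 2 and 0.0649 without KO room-air replicate 1. Of the 6 lower, Sesn1 fell most, from a mean of 147 to 66.4 TPM (-1.14, limma adjusted p = 3.73e-05). Btg2 fell from a mean of 14 to 7.48 TPM (-0.82, limma adjusted p = 0.000487). Trp53 is on the target list and is 1 of these 6. It had 27.9 and 30.4 TPM in hyperoxia against 43.6 and 45.8 (-0.60 ± 0.12, limma adjusted p = 0.00538).

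**Figure D5:**
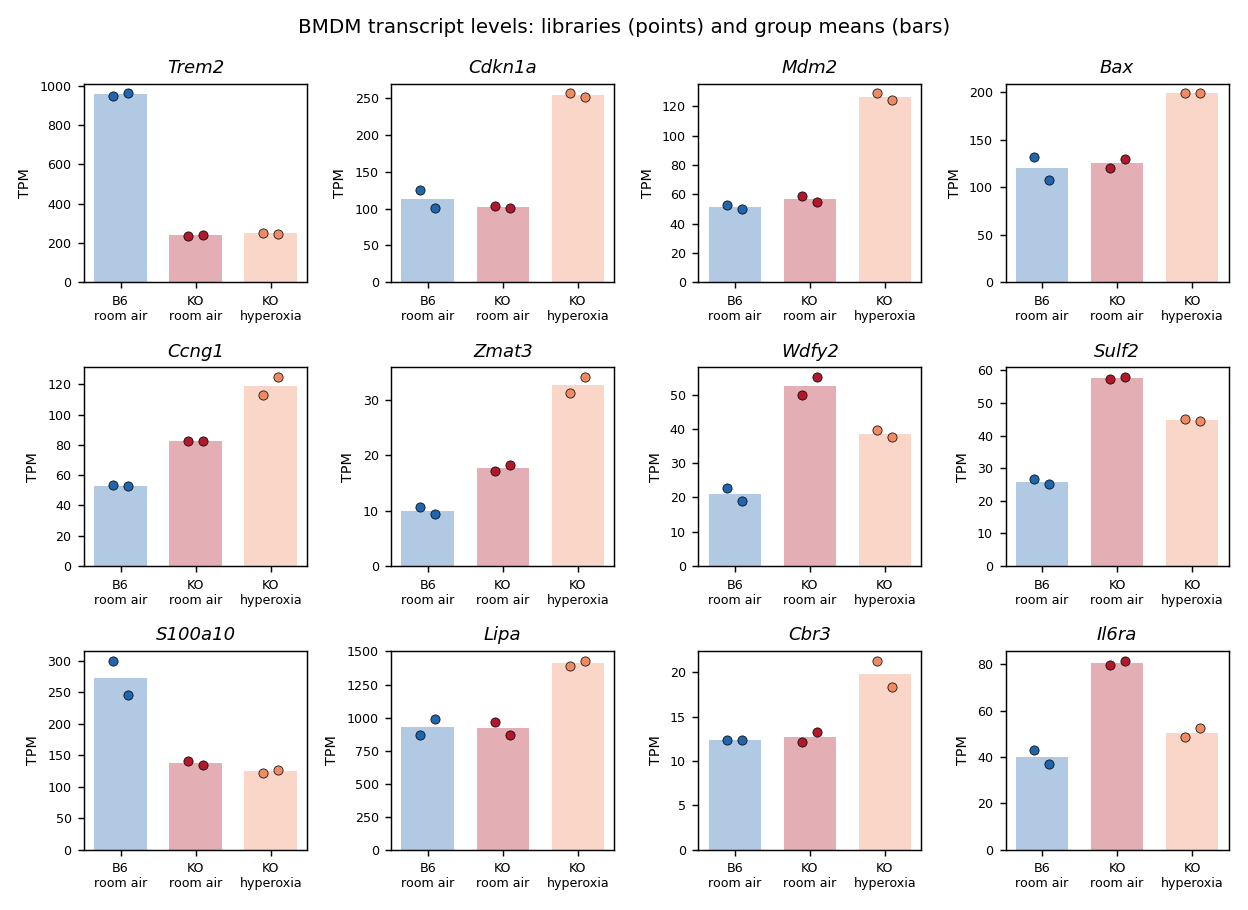
TPM (y axis, from 0) of 12 genes in B6 room air, KO room air and KO hyperoxia BMDM, with points for the 2 libraries and bars for their mean. Trem2 is the targeted gene, Cdkn1a, Mdm2, Bax, Ccng1 and Zmat3 are p53 targets without a KO room-air peak, and the last 6 genes have one within 10 kb. Cdkn1a is near 100 TPM in both room-air groups (125 and 101 in B6, 103 and 101 in KO) and at 257 and 252 in KO hyperoxia.

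Of the genes nearest to the 5 peaks with the much higher B6 hyperoxia score, 3 with at least 5 TPM are described here, chosen after their values were seen. Klhdc4 had 12.9 and 12.9 TPM in KO room air and 15.7 and 13.3 in B6 (limma adjusted p = 0.185). It passed after quantile normalization (-0.29, limma adjusted p = 0.00785) and without the second B6 library (-0.26, limma adjusted p = 0.0366). Sash1 was higher in KO, with 121 and 120 TPM against 68.8 and 57.5 (0.93 ± 0.11, limma adjusted p = 8.97e-05). Map3k7 was also higher, with 20.2 and 21.3 against 15.0 and 15.9 TPM (0.40 ± 0.09, limma adjusted p = 0.00401). DBA room air had 14.0 and 14.4 TPM of Klhdc4, 158 and 168 of Sash1 and 20.1 and 23.3 of Map3k7. Between KO hyperoxia and KO room air none of Klhdc4, Sash1 and Map3k7 passed the test (limma adjusted p = 0.294, 0.876 and 0.635). After quantile normalization Klhdc4 passed there (0.24, limma adjusted p = 0.0356).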

How the data were processed

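Peak lists were used as deposited. Per the file headers, the authors called them with HOMER on tag directories that combine replicates, at 4-fold over input and local background. Each score is a deposited tag count per 10 M tags. Scores were multiplied by the header's total to estimate tags. Per the submitters' processing notes, reads were aligned to mm10 with Bowtie2 and STAR, in versions not given in the sources used here. For RNA, the deposited table holds the authors' deposited TPM for 24940 transcripts, 1 per gene, whose start sites were used for distances.

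TPM were tested as log2(TPM + 1) with limma 3.58.1 in R 4.3.3, over the 6 BMDM groups of 2 libraries, for the 12320 genes with at least 1 TPM in at least 2 libraries, with a variance trend and Benjamini-Hochberg adjustment over all of them. Scripts were tested on simulated data. Fold changes on this scale understate changes of low genes, and p-values measure only the spread between these libraries. Motifs and overlaps were searched in promoter windows and intervals as given.

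Named were the 12 highest peaks, the 3 highest of each overlap class, peaks near p53 targets or Trem2, and up to 6 largest rises and falls among called peak genes with at least 5 TPM and groups that do not overlap. Other peaks and genes named were chosen after their values were seen. Peaks and gene lists were chosen with earlier results of these data known.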

Additional observations from a re-analysis of the deposited data

How the results depend on the processing

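Overlap counts were recomputed with overlap of at least 50% of the interval, centres within 500 bp, only scores over the median and only the highest intervals of the other list, and none moved by over 1.5 times. Leaving out crowded regions and contigs, added after seeing the data, gave 30 for KO hyperoxia and 35 for B6 room air. The share of peaks near start sites was 1.5% at 1 kb and 58.6% at 50 kb.

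For peak genes in KO against B6, a limit of 1 kb gave 5 of 12 tested higher (41.7%) and 0 lower. A limit of 50 kb gave 415 higher (36.6%) and 165 lower (14.6%), beside 33.9% and 15.3% of all genes. A fold change of at least 2 gave 11 and 6. Quantile normalization gave 62 lower. Leaving out 1 library gave 52 to 72 higher and 22 to 34 lower. For KO hyperoxia against room air, 1 kb gave 0 of 12 tested higher and 3 lower (25%). A limit of 50 kb gave 87 higher (7.67%) and 183 lower (16.1%), beside 6.88% and 16.4% of all genes. A fold change of at least 2 gave 0 and 2. Quantile normalization gave 24 higher, and only the 2 groups in the fit gave 28 and 65. Leaving out 1 library gave 5 to 8 higher and 14 to 23 lower. For the fold-change, 2-group and left-out-library settings, counts over all genes are not given here. Those counts therefore do not set peak genes apart. Except for Lipa in KO against B6, whose log2 fold change went from -0.02 to 0.26 with quantile normalization (limma adjusted p = 0.0486), no named gene changed direction past the threshold.

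With the replicate number as a block, KO hyperoxia against room air gave 11 peak genes higher and 35 lower. The matching counts over all genes are not given here. Deviations of same-numbered KO libraries correlated at -0.05 over 12320 genes, so the numbers were not used as pairs. No paired analysis was possible for KO against B6 because both B6 columns carry the same number. The median peak held 8 tags, which is also the threshold in the header, and the part of depth was not tested.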
